A study of Mus musculus with 10 samples.

Results

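The TNF ligand and receptor superfamilies were examined in kidneys with a Cre-driven deletion of Pkd2, with or without miR-21. Members were taken by name alone, as every row whose symbol starts with Tnfsf or Tnfrsf and a number, plus Tnf, Lta, Ltb, Cd40, Cd40lg and Cd27. The rule found 37 of 30431 rows, 15 ligands and 22 receptors. The rule uses no measured value, but the family was chosen with earlier results of these data known. RNA had been sequenced from whole kidney, with 10 mice in all, at postnatal day 21. The DM group (3 mice, genotype Pkhd1Cre; Pkd2 F/F; miR-21null) had Pkd2 deleted by a Cre driven from the Pkhd1 promoter and carried null miR-21 alleles. The SM group (3 mice, Pkhd1Cre; Pkd2 F/F) had the same deletion with miR-21 intact, and the WT group (4 mice) was labelled wild-type without further alleles. The labels state neither the strain nor whether WT mice carried Cre. Pkhd1 is active mainly in the collecting duct, so each kidney also contained cells in which Pkd2 was not deleted.

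TNF family ligands are trimeric cytokines, held on the cell surface or shed from it. Their receptors fall into those with a death domain, which can recruit caspase-8, those that bind TRAF adaptors and activate NF-kB, and a few that lack both and can act as decoys. TNF itself is a long-known component of cyst fluid in polycystic kidney disease, and in kidney the family is best known for tubular injury, fibrosis and the tertiary lymphoid tissue of chronic inflammation.

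Values came from the authors' own comparison of the groups, so they are given per group, and values of single libraries were not analysed here. For each row the error is the standard error implied by the likelihood ratio test (SE), a row was said to pass at an adjusted p below 0.05, and levels in CPM (counts scaled to the size of each library) were computed per group from the deposited average and fold changes and carry no error. The lowest average any row could take was 0.0514 CPM, held by 3888 rows. Pkd2 did not pass in the authors' deposited table of either comparison with WT (log2 fold change -0.49, SE 0.20, adjusted p = 0.0838 in DM; -0.41, SE 0.20, adjusted p = 0.179 in SM), and the Mir21 row stood at the lowest level, so neither row checks the genotypes. Kidney markers were present in all groups, such as Umod of the loop of Henle at 2981 CPM in DM, 2862 CPM in SM and 3553 CPM in WT, and Aqp2 of the collecting duct at 269 CPM in DM, 231 CPM in SM and 280 CPM in WT. Alb, a liver gene, stood at 1.03 CPM in DM and 0.328 CPM in SM, against 132 CPM in WT, and the part of its source in these results was not tested.

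Relative to wild type, kidneys with the Pkd2 deletion had more transcript of 3 ligands at very low levels in WT, CD30 ligand (Tnfsf8), TNF and RANK ligand (Tnfsf11), and of a set of receptors that included 4-1BB (Tnfrsf9), TACI (Tnfrsf13b), GITR (Tnfrsf18) and Fn14 (Tnfrsf12a). Of the 37 members, 9 rose and 1 fell in the authors' deposited DM and WT comparison, where 7.55% of all rows rose and 5.92% fell. For SM against WT, 13 members rose while 0 fell, by the authors' deposited table, where 7.87% of all rows rose and 6.09% fell. Among the 19 members with an average of at least 1 CPM, 4 rose and 1 fell in DM, where 11.3% and 8.53% of rows at that level did so, and 7 rose and 0 fell in SM, where the shares were 12.2% and 9.47%. The median log2 fold change over the 37 members was 0.78 in DM and 0.51 in SM, and over all rows it was 0 in both. At an unadjusted p below 0.05 stood 20 members in DM and 15 in SM, beside 23.3% and 23.4% of all rows. With an F reference of 7 degrees of freedom in place of chi-square, 3 members rose and 0 fell in DM, where 1.24% of all rows rose and 0.243% fell, and 2 rose and 0 fell in SM, where 1.81% rose and 0.434% fell. The 3 in DM were Tnfsf8, Tnf and Tnfrsf12a, and the 2 in SM were Tnfsf8 and Tnf. Tnfsf11, Tnfrsf9, Tnfrsf13b and Tnfrsf18 passed in neither comparison with that reference, so their calls are less certain. Both comparisons share the WT libraries, so their likeness is no separate evidence. The tissue was whole kidney, in which fewer cells of a type and less RNA per cell cannot be told apart.

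**Figure D1:**
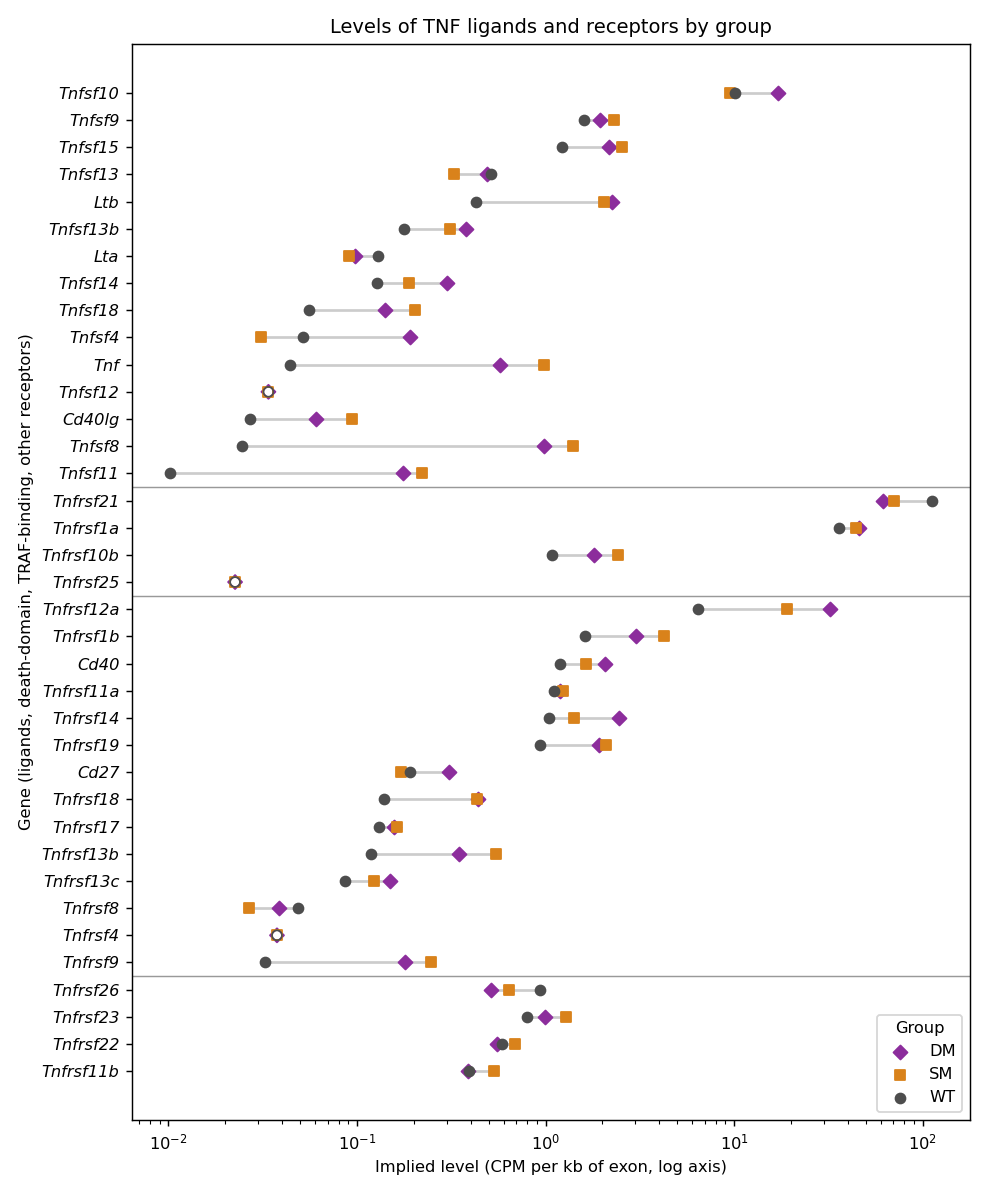
Implied level of the 37 genes in CPM per kb of annotated exon (log axis) in DM (diamonds), SM (squares) and WT (circles), ordered by kind and by WT level, with open symbols for the 3 genes at the lowest level. Tnfsf8, Tnf and Tnfsf11 show the widest gaps between WT and the other groups, and Tnfrsf21 and Tnfrsf1a the highest levels.

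The promoters of 4 called genes are printed because 2 of them hold a word of the NF-kB type and the other 2 belong to the ligands with the largest changes. Each run is the 250 bases before the RefSeq start site (GRCm38.p6), 5′ to 3′ on the gene's strand, with any match of the NF-kB word (GGG, any 3 bases, TTCC) in capitals.
Ltb promoter (chr17:35194257-35194506, + strand): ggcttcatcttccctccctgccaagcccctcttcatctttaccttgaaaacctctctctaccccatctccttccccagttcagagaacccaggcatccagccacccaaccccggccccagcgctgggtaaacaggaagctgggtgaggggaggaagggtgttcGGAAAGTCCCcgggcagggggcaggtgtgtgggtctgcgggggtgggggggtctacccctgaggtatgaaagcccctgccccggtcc
Tnfrsf9 promoter, downstream start (chr4:150927749-150927998, + strand): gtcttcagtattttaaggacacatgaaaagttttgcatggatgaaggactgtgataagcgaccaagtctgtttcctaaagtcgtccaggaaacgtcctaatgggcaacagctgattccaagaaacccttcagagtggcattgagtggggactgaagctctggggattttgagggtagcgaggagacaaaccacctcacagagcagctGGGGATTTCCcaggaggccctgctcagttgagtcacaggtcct
Tnf promoter (chr17:35202008-35202257, - strand): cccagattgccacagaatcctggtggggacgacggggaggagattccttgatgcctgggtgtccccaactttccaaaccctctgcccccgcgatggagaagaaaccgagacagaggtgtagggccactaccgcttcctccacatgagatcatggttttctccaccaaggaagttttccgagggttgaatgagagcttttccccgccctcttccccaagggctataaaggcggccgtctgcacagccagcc
Tnfsf8 promoter (chr4:63861285-63861534, - strand): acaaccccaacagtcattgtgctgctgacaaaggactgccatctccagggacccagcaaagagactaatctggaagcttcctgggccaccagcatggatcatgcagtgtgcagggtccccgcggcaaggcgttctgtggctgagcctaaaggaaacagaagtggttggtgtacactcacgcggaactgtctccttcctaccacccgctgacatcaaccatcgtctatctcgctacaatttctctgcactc

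NF-kB binds words of this form, and both strands were searched. RefSeq windows were matched for 28 of the 37 members, and 3 of those 28 held the word (Ltb, Tnfrsf9 and Tnfrsf25), in 3 of their 32 windows, while 4.65% of all 32851 windows did. In Ltb the match lay at -87 to -78 from the start, on the opposite strand, and in Tnfrsf9 at -43 to -34. The interferon response word (GAAA, any 2 bases, GAAA), on both strands, was in windows of 4 members (Tnfrsf1b, Tnfrsf14, Tnfrsf17 and Tnfsf13b) and in 2.98% of all windows. Of these 4, Tnfrsf1b rose in SM and the others did not pass. A match describes letters and not binding, and the 250 bases leave out any element further away.

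Tnfsf8 encodes CD30 ligand, a surface protein of activated lymphocytes and myeloid cells. Its implied level was 3.76 CPM in DM and 5.34 CPM in SM, against 0.0932 CPM in WT. The log2 fold change was 5.33 (SE 0.62, adjusted p = 4.16e-15) in DM and 5.84 (SE 0.63, adjusted p = 8.57e-18) in SM relative to WT in the authors' deposited tables, which is a 57.2-fold difference in SM. Tnf, the founding inflammatory cytokine, stood at 0.937 CPM in DM and 1.62 CPM in SM, against 0.0723 CPM in WT. It rose by 3.70 (SE 0.65, adjusted p = 7.5e-07) in DM and by 4.48 (SE 0.65, adjusted p = 6.99e-10) in SM on the log2 scale in the authors' deposited tables. Tnfsf11, RANK ligand, is best known as the signal for osteoclast formation. It stood at 0.39 CPM in DM and 0.492 CPM in SM, against 0.0228 CPM in WT, and rose by 4.10 (SE 0.90, adjusted p = 1.45e-04) in DM and by 4.43 (SE 0.89, adjusted p = 2.39e-05) in SM in the authors' deposited tables. The WT levels of these 3 ligands lay near or below the lowest average in the tables. Their direction passed the test, but the size of a fold against so low a level depends on the fit and is uncertain.

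Ltb, lymphotoxin beta, which forms a membrane complex with lymphotoxin alpha and acts in lymphoid tissue formation, stood at 3.40 CPM in DM and 3.08 CPM in SM, against 0.647 CPM in WT. It rose by 2.39 (SE 0.42, adjusted p = 9.36e-07) in DM and by 2.25 (SE 0.43, adjusted p = 5.53e-06) in SM on the log2 scale in the authors' deposited tables. Ltb (35194439 to 35196320), Tnf (35199381 to 35202007) and Lta (35203165 to 35205351, GRCm38) lie side by side on chromosome 17, and Lta, at 0.134 CPM in DM, 0.126 CPM in SM and 0.179 CPM in WT, did not pass in any comparison. Tnfsf15, the cytokine TL1A, stood at 7.25 CPM in DM and 8.46 CPM in SM, against 4.11 CPM in WT. It rose by 1.04 (SE 0.31, adjusted p = 0.0101) in SM, and its value in DM was 0.82 (SE 0.31, adjusted p = 0.0618) in the authors' deposited tables. Tnfsf15 (chromosome 4, 63727084 to 63745113) is the neighbour of Tnfsf8 (63831308 to 63861347). Tnfsf18, the ligand of GITR, stood at 0.292 CPM in DM and 0.42 CPM in SM, against 0.115 CPM in WT, and rose by 1.87 (SE 0.64, adjusted p = 0.0275) in SM, with 1.35 (SE 0.63, adjusted p = 0.161) in DM in the authors' deposited tables.

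The other ligands above 1 CPM did not pass. Tnfsf10 (TRAIL), which triggers apoptosis through death receptors, had the highest level per kb of exon among the ligands, at 17.0 CPM per kb in DM, 9.49 in SM and 10.1 in WT. Its log2 fold change was 0.74 (SE 0.38, adjusted p = 0.223) in DM and -0.10 (SE 0.39, adjusted p = 1) in SM, each against WT, in the authors' deposited tables. Tnfsf13b (BAFF), the B cell survival factor, stood at 1.09 (SE 0.41, adjusted p = 0.0547) in DM and 0.80 (SE 0.42, adjusted p = 0.227) in SM, and Tnfsf9, the ligand of 4-1BB, at 0.29 (SE 0.36, adjusted p = 0.775) in DM and 0.53 (SE 0.36, adjusted p = 0.429) in SM in the authors' deposited tables. Over the 15 ligands, 4 rose in DM and 6 in SM, and 0 fell. Of all rows, 7.55% rose and 5.92% fell in DM, and 7.87% rose and 6.09% fell in SM.

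**Figure D2:**
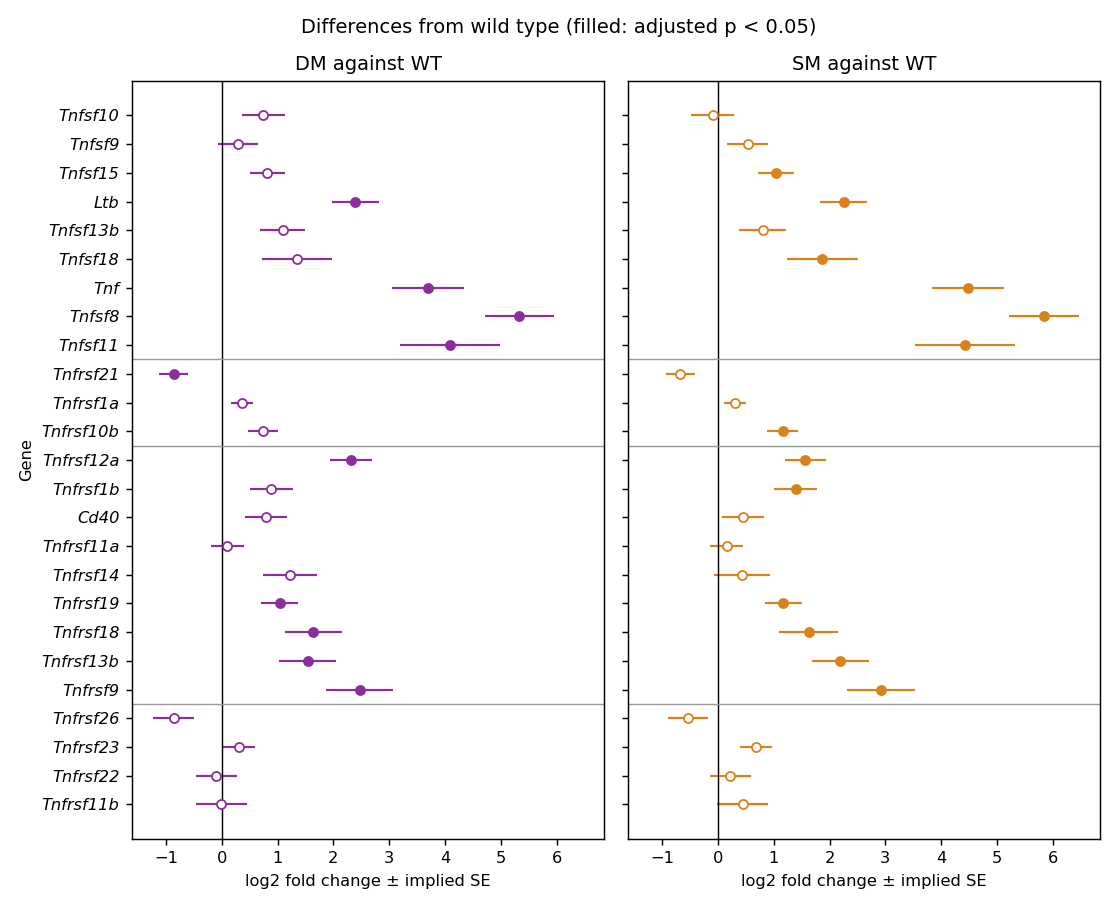
Log2 fold change with the implied SE (bars) for the 25 genes named with values, DM against WT on the left and SM against WT on the right, filled where the adjusted p was below 0.05. Filled points lie right of 0 except Tnfrsf21 in DM, at -0.86.

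Of the 4 death-domain receptors, DR6 (Tnfrsf21) fell in DM and DR5 (Tnfrsf10b) rose in SM. Tnfrsf21 had the highest level of all members per kb of exon, 62.0 CPM per kb in DM, 70.8 in SM and 113 in WT. It fell by 0.86 (SE 0.26, adjusted p = 0.0124) in DM on the log2 scale, and its value in SM was -0.67 (SE 0.26, adjusted p = 0.0694) in the authors' deposited tables. Tubule markers were mostly lower as well, with 6 of 12 lower and 1 higher in DM and 7 lower and 1 higher in SM, and a summed level of 9470 CPM in DM, 8757 CPM in SM and 15217 CPM in WT, with none at the lowest level. Pvalb, a marker of the distal convoluted tubule, fell by 2.22 (SE 0.38) in DM and fell by 3.68 (SE 0.42) in SM in the authors' deposited tables. Of all rows, 5.92% fell in DM and 6.09% in SM. The part of the tubule markers in the value of Tnfrsf21 was not tested. Tnfrsf10b, which encodes DR5, the death receptor for TRAIL in mice, stood at 9.87 CPM in DM and 13.2 CPM in SM, against 5.92 CPM in WT. It rose by 1.16 (SE 0.28, adjusted p = 5.45e-04) in SM, and its value in DM was 0.74 (SE 0.27, adjusted p = 0.0528) in the authors' deposited tables. Tnfrsf1a, the main receptor of soluble TNF, was well expressed at 120 CPM in DM, 115 CPM in SM and 93.3 CPM in WT. Its log2 fold change was 0.36 (SE 0.19, adjusted p = 0.251) in DM and 0.31 (SE 0.19, adjusted p = 0.369) in SM in the authors' deposited tables, with upper 95% limits of 0.74 and 0.69. Tnfrsf25 (DR3), the receptor of TL1A, was listed at the lowest level.

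Among the 14 TRAF-binding receptors, 5 rose in DM and 6 in SM, and 0 fell. Beside these stand 7.55% of all rows higher and 5.92% lower in DM, and 7.87% and 6.09% in SM. Tnfrsf12a encodes Fn14, the receptor of TWEAK, known as an injury-inducible receptor of tubule cells. It stood at 62.0 CPM in DM and 36.8 CPM in SM, against 12.5 CPM in WT, and rose by 2.32 (SE 0.37, adjusted p = 4.2e-08) in DM and by 1.56 (SE 0.37, adjusted p = 4.15e-04) in SM on the log2 scale in the authors' deposited tables. Tnfrsf9 (4-1BB), a costimulatory receptor of activated T cells, stood at 0.489 CPM in DM and 0.67 CPM in SM, against 0.0884 CPM in WT. It rose by 2.47 (SE 0.61, adjusted p = 0.001) in DM and by 2.92 (SE 0.61, adjusted p = 5.66e-05) in SM in the authors' deposited tables. Tnfrsf13b (TACI), a receptor of BAFF and APRIL, stood at 0.985 CPM in DM and 1.55 CPM in SM, against 0.338 CPM in WT. It rose by 1.54 (SE 0.51, adjusted p = 0.0237) in DM and by 2.20 (SE 0.52, adjusted p = 4.66e-04) in SM in the authors' deposited tables. The other BAFF receptors, Tnfrsf13c and Tnfrsf17, did not pass.

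Tnfrsf18 (GITR), a receptor best known on regulatory T cells, stood at 0.666 CPM in DM and 0.659 CPM in SM, against 0.213 CPM in WT, and rose by 1.64 (SE 0.51, adjusted p = 0.0138) in DM and by 1.63 (SE 0.53, adjusted p = 0.0189) in SM in the authors' deposited tables. An antisense gene covers 27.2% of its exon bases in the GENCODE annotation, and the strand setting of the counting is not stated, so its value is less certain. Tnfrsf19 (TROY), a receptor of embryonic epithelia and neurons, stood at 9.07 CPM in DM and 9.92 CPM in SM, against 4.41 CPM in WT, and rose by 1.04 (SE 0.33, adjusted p = 0.0159) in DM and by 1.17 (SE 0.33, adjusted p = 0.00522) in SM in the authors' deposited tables. Tnfrsf1b, the second TNF receptor, stood at 11.5 CPM in DM and 16.3 CPM in SM, against 6.20 CPM in WT. It rose by 1.39 (SE 0.39, adjusted p = 0.00456) in SM, and its value in DM was 0.89 (SE 0.39, adjusted p = 0.119) in the authors' deposited tables. The other receptors of this kind above 1 CPM did not pass in either comparison with WT. Cd40, the costimulatory receptor of antigen-presenting cells, stood at 0.79 (SE 0.38) in DM and 0.45 (SE 0.38) in SM, Tnfrsf14 (HVEM) at 1.23 (SE 0.48) in DM and 0.43 (SE 0.49) in SM, and Tnfrsf11a (RANK) at 0.10 (SE 0.29) in DM and 0.16 (SE 0.29) in SM on the log2 scale in the authors' deposited tables.

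None of the 4 receptors without a death domain or TRAF site passed. Tnfrsf11b, the secreted decoy osteoprotegerin, stood at -0.01 (SE 0.46) in DM and 0.45 (SE 0.46) in SM in the authors' deposited tables. Tnfrsf22 and Tnfrsf23, mouse decoy receptors of TRAIL, lie beside Tnfrsf26 on chromosome 7. Tnfrsf22 stood at -0.10 (SE 0.36) in DM and 0.22 (SE 0.37) in SM, Tnfrsf23 at 0.32 (SE 0.28) in DM and 0.68 (SE 0.29) in SM, and Tnfrsf26 at -0.86 (SE 0.36, adjusted p = 0.0962) in DM and -0.54 (SE 0.36) in SM in the authors' deposited tables. Tnfrsf22 and Tnfrsf23 share 17.3% and 18.0% of their transcripts' 50-base windows with each other, so reads could be split between them and both values are uncertain.

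The remaining 12 members are, by the rule for naming, those that averaged below 1 CPM and passed in no comparison. Tnfsf12 (TWEAK), Tnfrsf4 (OX40) and Tnfrsf25 were listed at the lowest level. For Tnfsf12, whose receptor Fn14 rose, 48.3% of the exon bases overlap the read-through gene Tnfsfm13 on the same strand, and for Tnfsf13 (APRIL) 60.0% do, so both rows are uncertain and the level of TWEAK cannot be read from them. The other 9, Cd27, Cd40lg, Lta, Tnfrsf8, Tnfrsf13c, Tnfrsf17, Tnfsf4, Tnfsf13 and Tnfsf14, averaged 0.0716 to 0.739 CPM. Their log2 fold changes ranged over -0.41 to 1.88 in DM (lowest adjusted p = 0.112) and -0.86 to 1.79 in SM (lowest adjusted p = 0.386) in the authors' deposited tables, with SEs of 0.40 to 1.34 in DM and 0.42 to 1.31 in SM. In DM against SM their values ranged over -0.62 to 2.63 in the authors' deposited table, each with an adjusted p of 1.

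Ligands and their known receptors were set side by side. Of 26 pairs with both partners above the lowest level, 0 had both higher in DM against WT, where the ligand alone rose in 6, the receptor alone rose in 5 and fell in 1, and neither passed in 14. In SM against WT the ligand and receptor both rose in 2 (Tnf with Tnfrsf1b, Tnfsf18 with Tnfrsf18), only the ligand in 5, only the receptor in 6, and neither passed in 13. Pairs share members and are not independent, and the difference within a pair was not tested. How many pairs would both pass from the single counts alone was not computed, so the pair counts are a description only. The widest gap was CD30 ligand, at 5.84, beside its receptor Tnfrsf8, at -0.86 (SE 0.80, adjusted p = 0.618) and an implied 0.133 CPM in DM, 0.0925 CPM in SM and 0.168 CPM in WT by the authors' deposited table for SM. RANK ligand, at 4.43, stood beside RANK at 0.16 and osteoprotegerin at 0.45 by the same deposited values. Lymphotoxin beta, at 2.25, stood beside its receptor Ltbr at 0.08 (SE 0.19) in the authors' deposited table, with an implied level of 87.8 CPM in DM, 98.6 CPM in SM and 93.1 CPM in WT.

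**Figure D3:**
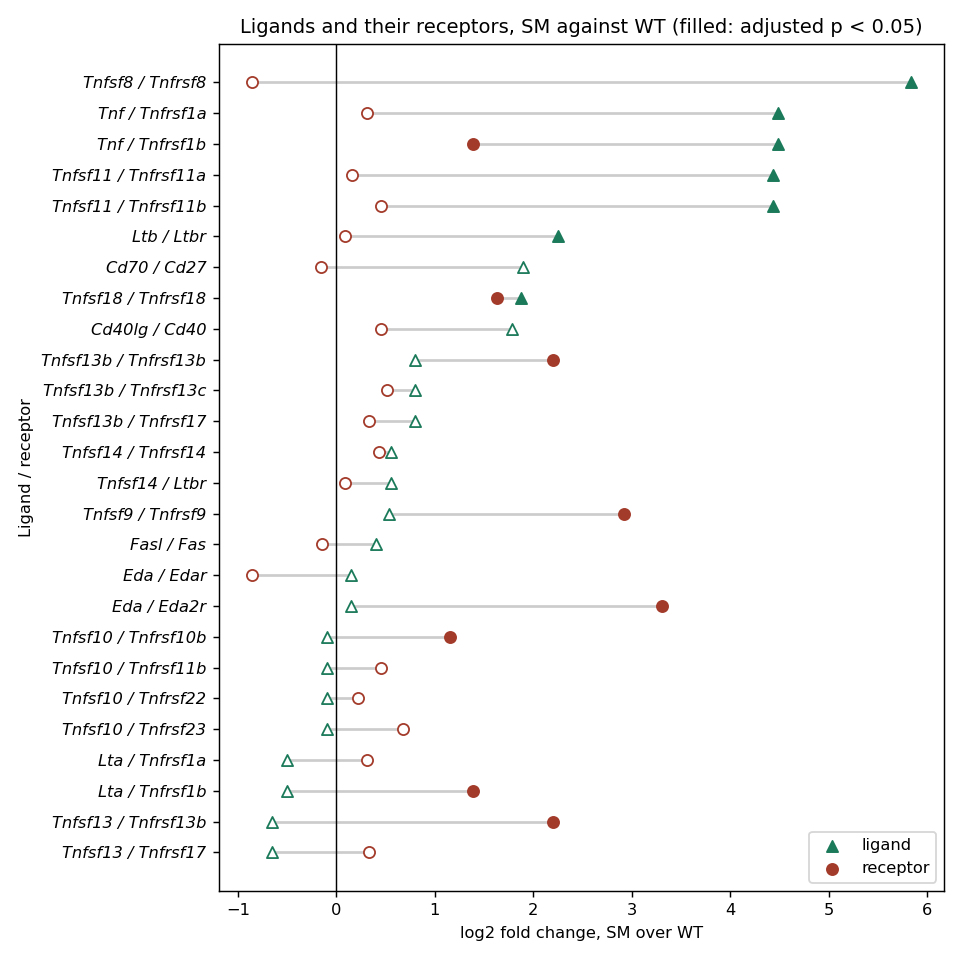
Log2 fold changes in SM against WT of each ligand (triangles) and its receptor (circles) for 26 pairs, sorted by the ligand's value and filled where the adjusted p was below 0.05. Tnfsf8, Tnf and Tnfsf11 lie at 4.43 or more while their receptors lie at 1.39 or less.

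Loss of miR-21 on top of the Pkd2 deletion gave no member that passed. In DM against SM, 0 of 37 members passed in either direction by edgeR's likelihood ratio test in the authors' deposited table, where 0.0559% of all rows rose and 0.023% fell, and the smallest adjusted p of a member was 1. Of the 19 members with an average of at least 1 CPM, 0 passed, where 0.0727% of rows at that level rose and 0.0132% fell. At an unadjusted p below 0.05 were 2 members, beside 3.75% of all rows. They were Tnfsf10, at 0.84 (SE 0.42, p = 0.0436), and Tnfsf4 (OX40 ligand), at 2.63 (SE 1.08, p = 0.0146), with implied levels for Tnfsf4 of 0.352 CPM in DM and 0.0569 CPM in SM, near the lowest average, in the authors' deposited table. For the 3 ligands with the largest changes against WT, and for Fn14, the 95% interval of DM over SM was -1.55 to 0.53 for Tnfsf8, -1.89 to 0.31 for Tnf, -1.65 to 0.98 for Tnfsf11 and -0.02 to 1.52 for Tnfrsf12a, from the authors' deposited table. These intervals leave room for differences of over 1 on the log2 scale, so the groups are not shown to be alike. The authors' deposited table gave narrower intervals for receptors at higher levels, -0.35 to 0.46 for Tnfrsf1a and -0.73 to 0.35 for Tnfrsf21. Among the other ligands the deposited table gave 0.14 (SE 0.43) for Ltb, -0.22 (SE 0.33) for Tnfsf15, -0.52 (SE 0.59) for Tnfsf18 and -0.24 (SE 0.39) for Tnfsf9. Among the other receptors that passed against WT, the authors' deposited table gave values of DM over SM from -0.65 (SE 0.52) for Tnfrsf13b to 0.02 (SE 0.50) for Tnfrsf18, with -0.50 (SE 0.42) for Tnfrsf1b, -0.45 (SE 0.54) for Tnfrsf9, -0.42 (SE 0.29) for Tnfrsf10b and -0.13 (SE 0.35) for Tnfrsf19. Of the receptors that passed in neither, Tnfrsf14 stood at 0.80 (SE 0.52), Cd40 at 0.33 (SE 0.40), Tnfrsf11a at -0.06 (SE 0.31), Tnfrsf11b at -0.46 (SE 0.49), Tnfrsf22 at -0.32 (SE 0.39), Tnfrsf23 at -0.36 (SE 0.30) and Tnfrsf26 at -0.32 (SE 0.38) in the authors' deposited table. A total of 9 members passed against WT in both groups, 4 in SM alone (Tnfrsf1b, Tnfrsf10b, Tnfsf15 and Tnfsf18) and 1 in DM alone (Tnfrsf21). How all rows split in this way was not computed, so these counts are a description only. None of the 5 members that passed in 1 group alone passed in DM against SM, which is the test of that difference.

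**Figure D4:**
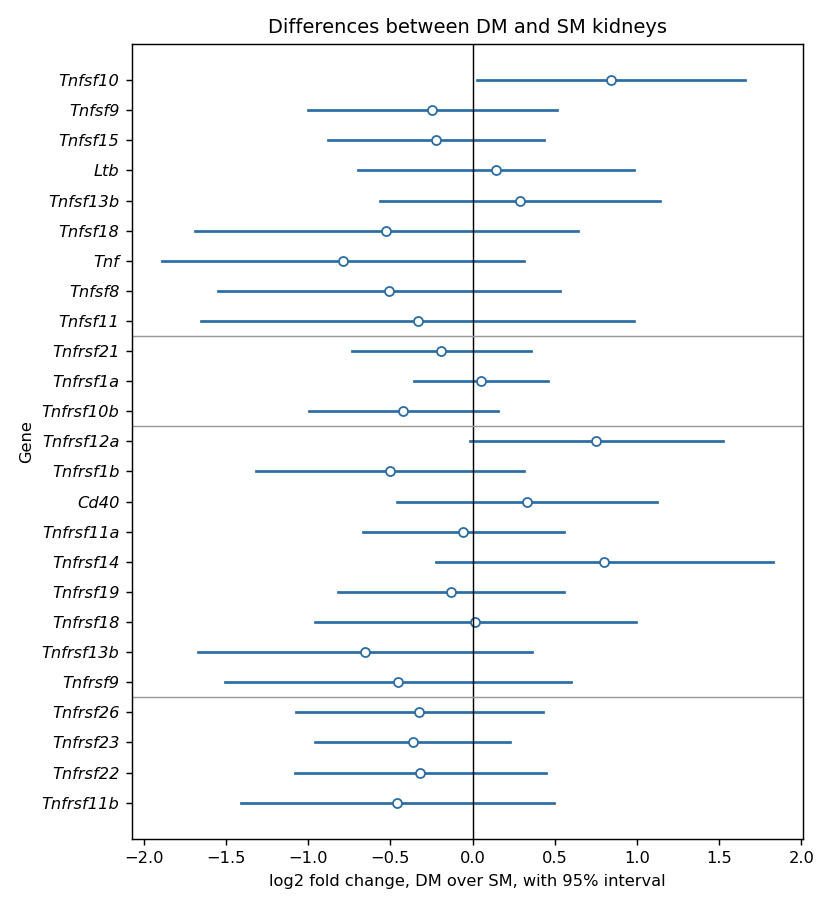
Log2 fold change of DM over SM with its 95% interval for the 25 genes named with values. The intervals include 0 except for Tnfsf10, which starts at 0.02 and did not pass after adjustment.

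The mature miR-21 sequence and the 2 member sites are printed because DM mice lack this miRNA. Capitals mark the seed, bases 2 to 8, and in the sites the 7 bases that pair with it. The miRNA sequence is RefSeq's (GRCm38 chr11:86584120-86584141, - strand), and the sites are read from GENCODE M21 transcripts.
mmu-miR-21a-5p: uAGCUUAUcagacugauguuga
Tnfsf10 site: aaagacaagagATAAGCTggtgtaccccg
Tnfsf13b site: tagccactcacATAAGCTctgctttgagc

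In the longest annotated 3′ UTR of each member, 2 of 37 (5.41%) held the word ATAAGCT, while 8.12% of the 12825 genes averaging 1 CPM or more did. These shares are not on like sets, since only 19 of the 37 members average at least 1 CPM. Both holders of the word are among those 19, so the members are not shown to hold it less often. The word starts at base 3141 of 3998 in the UTR of Tnfsf10 (chromosome 3) and at base 764 of 3631 in that of Tnfsf13b (chromosome 8). The value of Tnfsf10 in DM against SM is given above, and Tnfsf13b stood at 0.29 (SE 0.44, p = 0.505) there in the authors' deposited table. A match of 7 letters is a description and not a shown target.

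The superfamily also has 9 members under other symbols, of which 2 rose and 1 fell in DM and 2 rose and 0 fell in SM. The shares of all rows were 7.55% higher and 5.92% lower in DM, and 7.87% and 6.09% in SM. Eda2r, a receptor of the ectodysplasin splice form EDA-A2 and a known p53 target, stood at 3.16 CPM in DM and 3.92 CPM in SM, against 0.397 CPM in WT, and rose by 2.99 (SE 0.41) in DM and 3.30 (SE 0.41) in SM in the authors' deposited tables. Relt rose by 1.4 (SE 0.39) in DM and 1.34 (SE 0.39) in SM, and Edar fell by 1.06 (SE 0.38, adjusted p = 0.0435) in DM with -0.86 (SE 0.39) in SM, in the authors' deposited tables. The death receptor Fas was at 0.02 (SE 0.28) in DM and -0.15 (SE 0.28) in SM, and Fasl at 2.25 (SE 0.95, adjusted p = 0.106) in DM and 0.40 (SE 1.11) in SM, in the authors' deposited tables.

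Downstream of the receptors, most adaptors and kinases did not pass, about as many NF-kB subunits and inhibitors passed as did not, and most genes known to be induced through NF-kB rose. Differences between these lists were not tested. Of 28 adaptors and kinases, 5 rose and 0 fell in DM and 3 rose and 1 fell in SM (median log2 fold change 0.11 and 0.10). Among rows averaging at least 1 CPM, as these genes do, 11.3% rose and 8.53% fell in DM, and 12.2% rose and 9.47% fell in SM. The 3 adaptors and kinases that rose in SM stand near that share. Those that rose in both were Birc3 (cIAP2) at 1.03 (SE 0.27) in DM and 1.4 (SE 0.27) in SM, Ripk3, the kinase of necroptosis, at 1.73 (SE 0.35) in DM and 1.64 (SE 0.35) in SM, and Map3k14 (NIK), the kinase of the noncanonical NF-kB route, at 0.77 (SE 0.24) in DM and 0.74 (SE 0.24) in SM, in the authors' deposited tables. Mlkl, the effector of necroptosis, rose by 1.66 (SE 0.47, adjusted p = 0.00539) in DM, with 1.04 (SE 0.47, adjusted p = 0.141) in SM in the authors' deposited tables. Chuk, the kinase IKK-alpha, fell by 0.65 (SE 0.24, adjusted p = 0.0445) in SM by the authors' deposited table.

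Of 12 NF-kB subunits and inhibitors, 6 rose in DM and 7 in SM, and 0 fell (median 0.83 and 0.96). Of all rows, 7.55% rose and 5.92% fell in DM, and 7.87% rose and 6.09% fell in SM. The noncanonical subunits Nfkb2 and Relb rose, Nfkb2 by 1.08 (SE 0.21) in DM and 0.88 (SE 0.21) in SM, and Relb by 1.42 (SE 0.30) in DM and 1.27 (SE 0.30) in SM in the authors' deposited tables. Bcl3, an atypical IkB protein, had the highest value, 1.76 (SE 0.32) in DM and 1.93 (SE 0.32) in SM in the authors' deposited tables. The genes that rose also include negative regulators of the pathway, such as Tnfaip3 (A20) at 0.95 (SE 0.31) in DM and 1.04 (SE 0.31) in SM in the authors' deposited tables. Nfkb1, Rel, Rela, Nfkbia and Nfkbib passed in neither. Of 19 genes induced through NF-kB, 15 rose and 2 fell in DM and 15 rose and 1 fell in SM (median 3.53 and 2.44). Il6 had the highest value in both, 5.80 (SE 0.90) in DM and 6.01 (SE 0.90) in SM, and Sod2, a mitochondrial enzyme, fell by 1.0 (SE 0.22) in DM and by 1.15 (SE 0.22) in SM in the authors' deposited tables. In DM against SM, 0 genes of these 4 lists passed.

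Among immune cell markers, those of macrophages and monocytes rose most widely. Of these, 11 of 12 rose in DM and 12 of 12 in SM, with a summed level of 542 CPM in DM and 533 CPM in SM, against 144 CPM in WT. Fcgr1, an IgG receptor of macrophages, rose by 3.56 (SE 0.48) in DM, and Itgam, the integrin CD11b, by 3.02 (SE 0.35) in SM in the authors' deposited tables. Dendritic cell markers rose for 4 of 8 in each, with 30.3 CPM in DM, 26.8 CPM in SM and 27.1 CPM in WT. T cell markers rose for 6 of 12 in DM and 1 of 12 in SM (summed 20.0 CPM in DM, 12.9 CPM in SM and 10.3 CPM in WT), and NK and cytotoxic cell markers for 5 of 8 in DM and 1 of 8 in SM (9.70 CPM in DM, 2.23 CPM in SM and 1.12 CPM in WT). The highest were Cd8b1, a CD8 chain of T cells, at 4.67 (SE 0.97), and Gzmb, a cytotoxic granule protease, at 4.65 (SE 1.01), both in DM, in the authors' deposited table. Cd8a, also a CD8 chain, went the other way, at -0.24 (SE 0.57) in DM and -1.22 (SE 0.59) in SM, and did not pass. In DM, 11 T cell markers had a positive value and 1 a negative. Neutrophil markers rose for 1 of 8 in DM and 3 of 8 in SM (10.4 CPM in DM, 13.9 CPM in SM and 7.04 CPM in WT). For comparison, 7.55% of all rows rose in DM and 7.87% in SM. None of these marker lists had a marker at the lowest level. None of their markers passed in DM against SM, where 0.0559% of all rows rose and 0.023% fell. Values of DM over SM were positive for 8 of 8 NK and cytotoxic cell markers (median 1.38) and 11 of 12 T cell markers (median 1.12). They were positive for 6 of 12 macrophage, 5 of 8 dendritic cell and 3 of 8 neutrophil markers. The 2 groups are thus not shown to be alike in these markers. The part of such cells in the higher levels of Tnf, Tnfsf8, Ltb, Tnfrsf1b, Tnfrsf9 and Tnfrsf18 was not tested.

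None of the B cell markers passed. Of 10 measured, 0 passed in either comparison with WT, with a summed level of 10.9 CPM in DM, 8.69 CPM in SM and 9.55 CPM in WT. Fibroblast and mural markers rose for 4 of 8 in DM and 5 of 8 in SM (2055 CPM in DM, 2572 CPM in SM and 953 CPM in WT), and endothelial markers fell for 3 of 7 in DM and 0 of 7 in SM (699 CPM in DM, 895 CPM in SM and 978 CPM in WT). Over all rows, 7.55% rose and 5.92% fell in DM, and 7.87% rose and 6.09% fell in SM. Col1a1, a fibrillar collagen, rose by 2.01 (SE 0.32) in DM and 2.37 (SE 0.33) in SM, and Emcn, an endothelial surface protein, fell by 0.95 (SE 0.23) in DM in the authors' deposited tables.

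**Figure D5:**
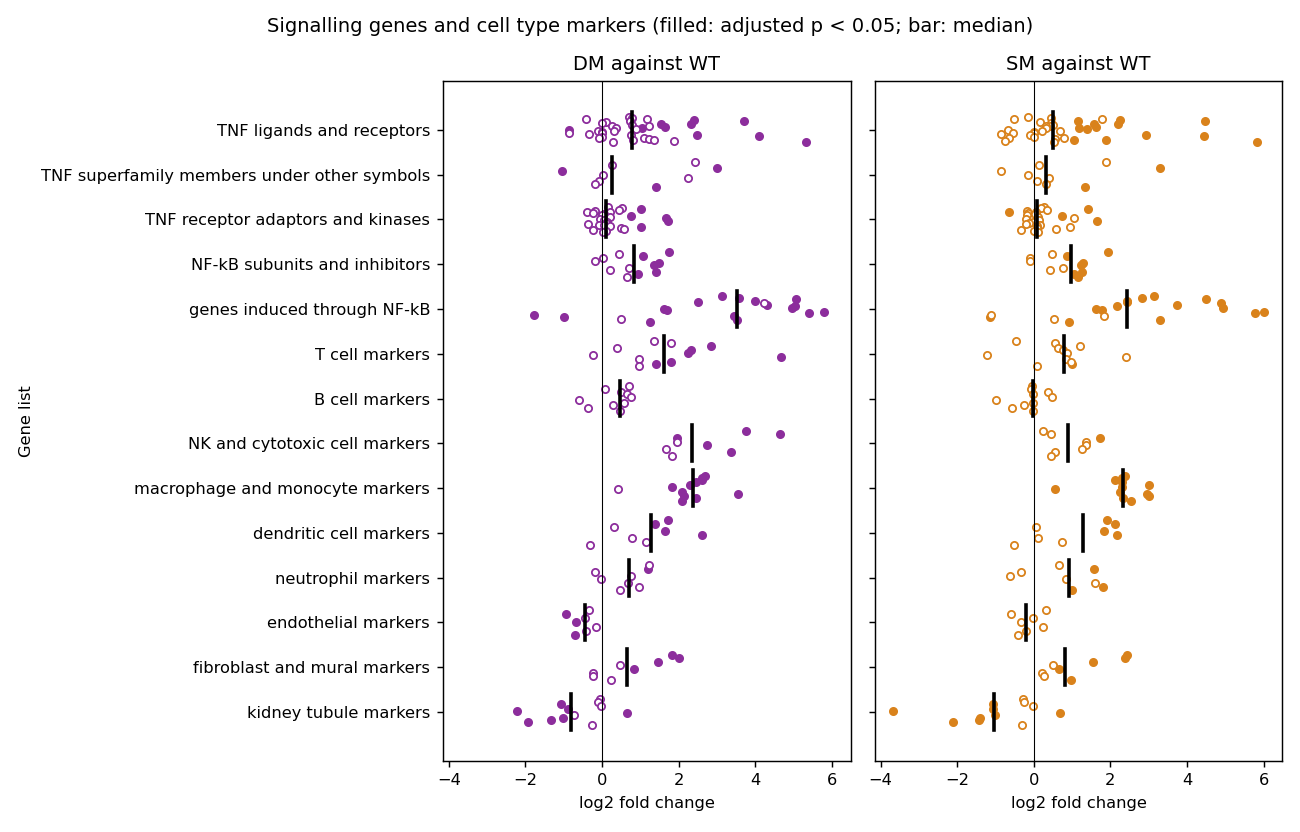
Log2 fold change of each gene (points, filled where the adjusted p was below 0.05) and the median (bar) for the TNF ligands and receptors, the 4 pathway lists and the 9 marker lists, DM against WT on the left and SM against WT on the right. Macrophage markers and genes induced through NF-kB have medians of over 2 in both panels, and kidney tubule markers have medians below 0.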

How the data were processed

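Kidney RNA of 10 mice (3 DM, 3 SM and 4 WT) was compared in 3 tables of 30431 rows. Per the labels' protocols, frozen kidneys were extracted and sequenced from a strand-marking kit for total RNA. The submitters' processing notes name TopHat2 2.0.12, featureCounts, Subread 1.4.6, Cufflinks, edgeR 3.2.4 and build mm10, without a role for each. Per the file headers, the authors deposited for every row its average log2 CPM, the log2 fold change, a score from edgeR's likelihood ratio test, a p-value and the false discovery rate. Tested on the files, the averages were identical in the 3 tables, each p-value equalled the upper chi-square tail for its score, and the adjusted p was the Benjamini-Hochberg value over all rows. Total counts of each library were not analysed here, so no counting interval is given. Whether replicates were separate litters is not stated, and the p-values come from edgeR's fitted model, which takes the libraries as independent. The spread between libraries was not examined here.

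The implied SE is the absolute fold change divided by the root of the score, and 95% intervals are 1.96 SE to each side. It is unreliable for rows near the lowest level. Group levels were solved from each row's average and its fold changes, and divided by the union of GENCODE M21 exons for CPM per kb. Genes were named with values if they passed in at least 1 comparison or averaged at least 1 CPM, which took 25 of 37, and the rest are given by range. Members and lists were chosen with earlier results of these data known, and the miR-21 word search was added after the tables were seen. Scripts (Python 3.11.15, scipy 1.17.1, statsmodels 0.14.6) were tested on simulated data. Promoter and miRNA sequences are RefSeq's, and coordinates are GRCm38, the assembly of mm10.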

Additional observations from a re-analysis of the deposited data

How the results depend on the processing

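The counts of members were recomputed under 8 alternatives to the authors' adjusted p below 0.05. For DM against SM the counts stayed at 0 under each of the 8. From 0 calls, the stricter threshold, Benjamini-Yekutieli, the F reference and the required log2 change could add none. The looser threshold could add none either, given the members' adjusted p-values. The 0 under these alternatives is therefore no separate evidence. For DM against WT the 9 higher members became 3 with an F reference of 7 degrees of freedom in place of chi-square, while over all rows 2299 became 377. The 1 lower member, Tnfrsf21, became 0 at an adjusted p below 0.01, with the Benjamini-Yekutieli adjustment, with the F reference and with a required log2 change of 1, and became 2 at an adjusted p below 0.10. For SM against WT the 13 higher members became 7 when rows below an average of 1 CPM were left out, since several members lie below it, and 2 with the F reference, while over all rows 2394 became 550, and the 0 lower members became 1 at an adjusted p below 0.10 and 1 over rows of at least 1 CPM. The other changes were within 1.5 times. The F reference kept the authors' scores and changed only the distribution they were read against, which raises every p-value. It could therefore lose calls and gain none. Most of the 75 single values had no call to lose. Calls stood only at 13 values in SM against WT, and at 9 higher and 1 lower in DM against WT. Of these calls, 18 were lost under the F reference and 8 under Benjamini-Yekutieli. A call was gained by 5 of 57 single values over rows of at least 1 CPM and by 1 of 75 over rows with a gene name only. No sign turned. Centring on the median of rows moved no call, with shifts of at most 0.01 in size on the log2 scale. Leaving out each replicate in turn was not run, because the tables hold no value per library, so no single animal's weight in a result is known. No paired analysis was possible because the labels give the groups no shared replicate numbers.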

Other observations

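The C1q and TNF related proteins are secreted factors whose globular head folds like a TNF trimer, and the rule by name did not take them. Of 8 C1qtnf rows, 7 lay above the lowest level, and 1 rose and 1 fell in DM against WT and 2 rose and 0 fell in SM by the authors' deposited tables. The shares of all rows were 7.55% higher and 5.92% lower in DM, and 7.87% and 6.09% in SM. Among rows averaging at least 1 CPM, as those 7 do, 11.3% rose and 8.53% fell in DM, and 12.2% and 9.47% in SM. With so few rows, the counts are not shown to differ from these shares. C1qtnf7 stood at 21.7 CPM in DM and 22.5 CPM in SM, against 11.8 CPM in WT, and rose by 0.88 (SE 0.22, adjusted p = 0.0013) in DM and by 0.93 (SE 0.22, adjusted p = 5.41e-04) in SM in the authors' deposited tables. C1qtnf6 rose by 0.76 (SE 0.22, adjusted p = 0.00673) in SM, and C1qtnf3 fell by 0.65 (SE 0.24, adjusted p = 0.049) in DM in the authors' deposited tables. In DM against SM, 0 of them passed.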
